A study of Mus musculus with 12 samples.

Results

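The BCL-2 family survival and death genes were taken as 10 genes, chosen by symbol and by role, of the 21960 genes listed for each PyMT mammary tumor. Of these, 4 encode anti-apoptotic proteins (Bcl2, Bcl2l1, Bcl2l2 and Mcl1) and 6 encode pro-apoptotic proteins (Bcl2l11, Bak1, Bid, Bad, Bmf and Bok). All 10 were listed in each of the 12 tumors, and all 10 reached the minimum for testing, a level of 1 TPM in 3 or more of the compared tumors, in each of 6 tests.

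BCL-2 family proteins set whether the outer membrane of the mitochondrion stays intact. When the effectors BAK and BAX open it, cytochrome c leaves and caspases are activated. The anti-apoptotic members hold back the effectors and bind the BH3-only proteins, which sense stress and trigger the effectors. In the mammary gland these proteins govern the loss of epithelial cells at involution, and doxorubicin, which damages DNA, kills tumor cells in part through them.

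The study asked how PD-1 blockade acts on mammary tumors with and without doxorubicin (DOX). RNA was sequenced from whole tumors of female C57BL/6 mice, with 3 tumors in each of 4 treatment groups and 1 tumor in each library. All mice carried the polyoma middle T oncogene (PyMT) under the promoter of the mouse mammary tumor virus, so the tumors were driven by 1 viral oncogene in mammary epithelium. Ages were not given, and treatment started at a set tumor size.

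The IgG1 group received an isotype control antibody and the anti-PD-1 group the PD-1 blocking antibody 4H2, both from a tumor diameter of 0.6 cm, at 20 mg/kg and from day 6 to day 18 at 10 mg/kg. The groups named DOX/IgG1 and DOX/anti-PD-1 started from 1 cm and were given weekly doxorubicin (5 mg/kg) for 5 weeks, each dose followed by 10 mg/kg of the same antibodies. The labels give a treatment duration of 5 weeks for all 4 groups. Tumors with and without doxorubicin thus also differed in starting size and antibody schedule, and the effects of these cannot be told apart from that of doxorubicin.

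The level of a gene is its TPM, its length-corrected share of the transcripts, obtained by reversing the log2(TPM + 1) of the deposited values. The read depth is unknown, because TPM keep no counts. Sums of TPM over the listed genes ran from 609418 to 725506. The identity of the tissue was checked on 6 luminal epithelial markers, all of which were present, with Epcam the most abundant at a mean of 729 TPM and summed levels of 2040 to 3670 TPM per tumor. Whole tumors mix cell types, so fewer cells of a type and less RNA per cell cannot be told apart for any gene.

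DOX/IgG1 replicate 1 stood apart from the other libraries. Its header carried the extra word "test", its median correlation with the other tumors across 14735 genes was the lowest (r = 0.884), and it held the most genes at 0 (8104). DOX/anti-PD-1 replicate 3 came next, with a median correlation of 0.888. The headers of all 3 DOX/anti-PD-1 tumors also end in Cov.2 and those of the other 9 in Cov.1, which nothing explains, so whatever this stands for cannot be told apart from that treatment. The tumor with the extra word also had the lowest summed luminal markers (2040 TPM) and fibroblast markers (436 TPM), and results that rest on it are given with and without it.

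Differences between groups were tested with limma across all genes that passed the minimum, with p-values adjusted over all of them (Benjamini-Hochberg). A gene passed when its adjusted p was below 0.1 and its log2 fold change lay beyond 1 or -1, the limits of the study. With these limits the study used DESeq2 and reported more genes in each pairwise comparison than passed here. The counts given below are thus those of limma on TPM and not those of the study. The part of the method in this gap was not tested. Each log2 fold change is a difference of means on the log2(TPM + 1) scale, and the p-values measure the spread between tumors. Single genes were also compared with a two-sided exact permutation test, which cannot go below p = 0.1 for 3 tumors against 3 and 0.00216 for 6 against 6.

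The levels of the 10 genes spanned a wide range and kept their ends in every group. Mcl1, an anti-apoptotic protein with a short life, had the highest level in all 4 groups, with 129 ± 19.8 TPM (mean ± SD, n = 12 tumors). Bok, a relative of the effectors that was named for its place in the ovary, had the lowest level in all 4 groups and stayed at or below 4.10 TPM. The lowest Mcl1 value, 99.7 TPM, lay above the highest value of any other member, the 98.4 TPM of Bcl2l1.

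Between these ends, the order over the 12 tumors was Bcl2l1 (71.6 ± 16.9 TPM), Bcl2l11 (48.8 ± 12.5 TPM), Bcl2 (46.0 ± 10.4 TPM), Bcl2l2 (20.1 ± 4.63 TPM), Bmf (18.8 ± 8.81 TPM), Bad (17.8 ± 7.72 TPM), Bid (15.1 ± 4.16 TPM) and Bak1 (14.6 ± 10.0 TPM; mean ± SD, n = 12). Neighbours in this order whose values did not overlap were Mcl1 and Bcl2l1, Bcl2 and Bcl2l2, and Bak1 and Bok. From Bcl2l2 to Bak1 each gene overlapped with the next, and the order of these 5 differed between the groups. In its mean level Mcl1 exceeded 93.5% of the 14725 genes compared.

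**Figure D1:**
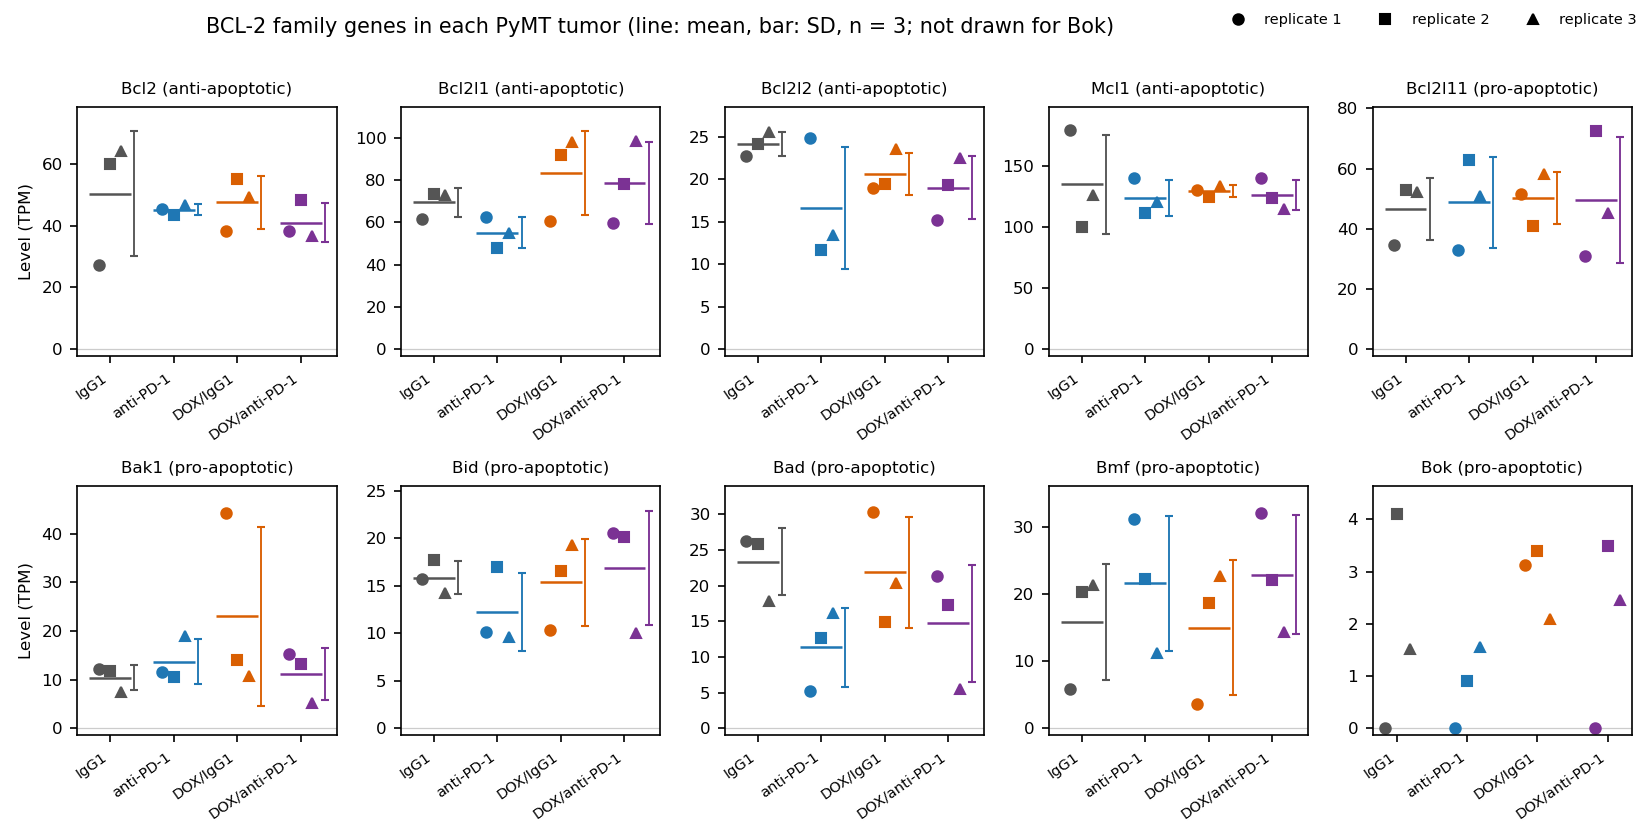
Level in TPM of each of the 10 genes in each of the 12 tumors, with the mean and SD of each group of 3 (none drawn for Bok, which is listed at 0 in 3 tumors). Mcl1 is the highest in every group, Bad is lower in all 3 anti-PD-1 tumors than in all 3 IgG1 tumors, and 1 DOX/IgG1 tumor holds the highest Bak1 value, 44.3 TPM.

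The genes also differed in how far tumors of 1 group lay apart. Within groups, Mcl1 had the smallest spread of the 10, an SD of 0.24 on the log2 scale, and only 7.2% of genes varied less. Bcl2l1 (0.28), Bcl2l2 (0.32) and Bcl2 (0.37), the other anti-apoptotic genes, came next, all below the median of all genes, 0.48. Among the pro-apoptotic genes Bid (0.42) and Bcl2l11 (0.43) also lay below that median, while Bad (0.67), Bak1 (0.70), Bok (0.91) and Bmf (0.92) lay above it.

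Mcl1 and Bok stood at the ends of the order and formed the most strongly opposed pair across tumors. Bad was the member whose IgG1 and anti-PD-1 tumors did not overlap, as was the case for 9.88% of all genes. The promoters of these 3 members are therefore printed. Each is the 300 bases around the start annotated by RefSeq on build GRCm38.p6, 5′ to 3′ on the strand of the gene. The regions are chr3:95658471-95658770 for Mcl1, chr1:93685325-93685624 for Bok and chr19:6941611-6941910 for the first of the 2 Bad windows, all on the plus strand. Those of Mcl1 and Bok end before the starts of these genes in GENCODE (95658788 and 93685660), and that of Bad spans its start. Capitals mark the GC box letters GGGCGG or their reverse complement CCGCCC.
Mcl1: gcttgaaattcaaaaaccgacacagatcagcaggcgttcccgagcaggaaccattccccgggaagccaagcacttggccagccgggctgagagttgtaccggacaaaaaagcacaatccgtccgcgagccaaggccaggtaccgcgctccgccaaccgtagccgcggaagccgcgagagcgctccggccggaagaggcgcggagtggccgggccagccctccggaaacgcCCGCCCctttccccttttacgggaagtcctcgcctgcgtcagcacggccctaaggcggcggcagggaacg
Bok: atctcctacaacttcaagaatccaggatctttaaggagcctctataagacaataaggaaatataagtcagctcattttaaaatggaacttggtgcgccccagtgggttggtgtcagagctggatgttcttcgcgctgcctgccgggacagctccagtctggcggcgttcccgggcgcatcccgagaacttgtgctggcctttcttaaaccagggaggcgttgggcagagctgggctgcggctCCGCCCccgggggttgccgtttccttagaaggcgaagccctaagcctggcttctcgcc
Bad: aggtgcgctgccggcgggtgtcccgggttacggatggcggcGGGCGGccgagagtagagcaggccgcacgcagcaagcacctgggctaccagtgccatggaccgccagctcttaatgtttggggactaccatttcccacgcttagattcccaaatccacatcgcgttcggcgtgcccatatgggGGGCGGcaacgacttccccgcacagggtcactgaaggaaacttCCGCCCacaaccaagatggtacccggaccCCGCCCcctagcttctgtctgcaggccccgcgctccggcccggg

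These windows held 1 such match for Mcl1, 1 for Bok and 4 for Bad. Across all 16 windows of the 10 members, 9 (56.2%) held GGGCGG on either strand, against 35.7% of the 32851 promoters of all genes. Bcl2 had the most matches, 7 in its only window, while none of the 3 windows of Bcl2l1 and not the window of Bak1 held any. The letters TATAAA were in 0 of the 16 windows on either strand, against 13.6% of all promoters, CCAAT was in 5 (31.2% against 37.4%), and TGTTTAC was in 1 window, of Bcl2l11 (6.25% against 3.65%). The member windows were also richer in G and C, with a median of 61.0% against 52.7% in all promoters. Their median count of CG letter pairs was 18.5 against 7.0. The part of this in the shares of matches was not tested. A match describes the letters only.

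The genes lie on 7 chromosomes of GRCm38, with 3 of them, Bcl2l1, Bcl2l11 and Bmf, on chromosome 2 and both Bcl2 and Bok on chromosome 1. Mcl1 (ENSMUSG00000038612, chr3:95658788-95663176, plus strand) and Bcl2l1 (ENSMUSG00000007659, chr2:152780668-152831728, minus strand) overlap no other annotated gene. Bcl2l2 (ENSMUSG00000089682, chr14:54883377-54888234, plus strand) shares its strand with the overlapping gene Gm20521, which is listed too, so the reads behind its level could belong to either. Bad (ENSMUSG00000024959, chr19:6941861-6951899, plus strand) overlaps Gpr137 on the other strand, and Bak1 (ENSMUSG00000057789, chr17:27019810-27029009, minus strand) overlaps Ggnbp1 on the other strand.

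In the comparison of DOX/IgG1 with IgG1, which addresses doxorubicin on the control antibody, limma called 0 of 10 members, with 0 at an unadjusted p below 0.05. Of all 13874 genes tested, 0.0360% passed (5 genes, 2 higher and 3 lower) and 7.73% had an unadjusted p below 0.05. The 2 groups overlapped for all 10 members, whereas 14.0% of all genes did not overlap. Without DOX/IgG1 replicate 1 the number of genes that passed was 122, and without IgG1 replicate 1 it was 0, with 0 members in both cases. The members' median log2 fold change was -0.01, with 4 higher and 6 lower, and that of all genes was 0.12.

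Bcl2l1, whose long form BCL-XL holds back BAK and BAX, had 61.5, 73.5 and 72.9 TPM in the IgG1 tumors and 60.6, 91.6 and 97.9 TPM in the DOX/IgG1 tumors. With doxorubicin 2 tumors lay above all IgG1 tumors, and the DOX/IgG1 tumor with 60.6 TPM, replicate 1, lay below all of them. The means were 69.3 ± 6.76 and 83.4 ± 20.0 TPM (SD, n = 3), a log2 fold change of 0.24 by limma (SE 0.25, adjusted p = 0.843). Without DOX/IgG1 replicate 1 the 2 groups no longer overlapped and the log2 fold change was 0.45 (SE 0.24, limma adjusted p = 0.461), while 32.6% of all genes then did not overlap. The log2 fold change was 0.11 when DOX/IgG1 replicate 3 was left out instead.

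Bak1, which encodes the pore-forming effector BAK, had 12.1, 11.8 and 7.41 TPM in the IgG1 tumors and 44.3, 14.1 and 10.7 TPM in the DOX/IgG1 tumors. The groups overlapped, and the value of 44.3 TPM in DOX/IgG1 replicate 1 was the highest of all 12 tumors. The log2 fold change of 0.84 was the largest of the members in this comparison (SE 0.51, 95% confidence interval -0.33 to 2.01, limma adjusted p = 0.749, higher than all IgG1 tumors in 2 of 3). Without that tumor it was 0.25 (SE 0.38), and without DOX/IgG1 replicate 3 it was 1.22.

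DOX/IgG1 replicate 1 was also at an extreme for 2 BH3-only genes. Bmf, whose product is released from the cytoskeleton when cells detach, had 5.88, 20.3 and 21.4 TPM in the IgG1 tumors and 3.62, 18.8 and 22.6 TPM in the DOX/IgG1 tumors, with the lowest of all 12 values in that tumor. Its log2 fold change was -0.20 (SE 0.69) with this tumor and 0.54 without it. Bad, whose product binds BCL-XL and BCL-2 when it is not phosphorylated, reached its highest value there, 30.3 TPM.

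With the PD-1 antibody in both groups, DOX/anti-PD-1 against anti-PD-1, limma again called 0 of 10 members, with 0 at an unadjusted p below 0.05. The shares of all 13736 genes were 0% that passed and 8.63% (1185) with an unadjusted p below 0.05. Both groups overlapped for all 10 members, against 14.9% of all genes that did not overlap. The members' median log2 fold change was 0.18, and 7 were higher, beside a median of all genes of 0.11. Under scaling by the median of ratios, which moves that median to -0.01, 5 of 10 were higher.

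The smallest p among the members was that of Bcl2l1. The anti-PD-1 tumors had 62.4, 47.8 and 55.1 TPM and the DOX/anti-PD-1 tumors 59.5, 77.9 and 98.4 TPM. Of the latter, 2 lay above all anti-PD-1 tumors and 1 lay among them. The log2 fold change was 0.48 (SE 0.25, 95% confidence interval -0.08 to 1.05, limma adjusted p = 0.617), and it ran from 0.31 to 0.67 when each tumor was left out. Bid, which links death receptors to mitochondria once a caspase cuts it, followed with 0.41 (SE 0.38), and its groups overlapped, at 9.62 to 17.0 TPM and 9.98 to 20.6 TPM.

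Some lists of cell type markers were also higher in this comparison. Of 5 fibroblast markers, 5 were higher, with a median log2 fold change of 0.77, 3 with an unadjusted p below 0.05 and 3 without overlap. Of 5 adipocyte markers, with Adipoq the most abundant (55.9 TPM), 5 were higher, with a median of 1.47, 4 at such a p and 3 without overlap, and their sums were 45.1, 38.1 and 69.7 TPM with anti-PD-1 and 476, 101 and 107 TPM with DOX/anti-PD-1. Of 3 markers of nerve and glia, with Sox10 the most abundant, 2 were higher, both at such a p. None of these markers passed, and the part of these cells in the Bcl2l1 values was not tested.

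Both comparisons were joined in a fit of all 12 tumors with the antibody as a term, the doxorubicin main effect. Limma called 0 of 10 members, with 0 at an unadjusted p below 0.05, while 0.0204% of 14735 genes passed (3 genes, all higher) and 12.0% had an unadjusted p below 0.05. The direction depended on the scaling, with 3 higher of 14 that passed under the median of ratios and 3 higher of 8 with the listed genes rescaled. Without DOX/IgG1 replicate 1, 212 genes passed, 179 higher and 33 lower, and still 0 members by limma, with 1 member, Bcl2l1, at an unadjusted p below 0.05. Without IgG1 replicate 2, 0 genes passed. The 6 tumors with and the 6 without doxorubicin overlapped for all 10 members, and 0.719% of all genes did not overlap.

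In this fit 8 of 10 members were higher with doxorubicin, but only 4 of 10 under scaling by the median of ratios. That scaling moved the median log2 fold change of all genes from 0.12 to 0.01, and the members' own median was 0.07. The largest log2 fold changes were those of Bok, 0.63 (SE 0.46), Bcl2l1, 0.36, and Bak1, 0.25 (SE 0.38). Bok ran from 0.35 without IgG1 replicate 1 to 0.93 without DOX/anti-PD-1 replicate 1 (limma unadjusted p = 0.0467, adjusted p = 0.374), and Bak1 turned to -0.08 without DOX/IgG1 replicate 1. The smallest was that of Mcl1, which differed by 0.00 with a 95% confidence interval of -0.33 to 0.34.

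For Bcl2l1 the 6 tumors without doxorubicin had 47.8 to 73.5 TPM (62.2 ± 10.0, mean ± SD, n = 6) and the 6 with it 59.5 to 98.4 TPM (81.0 ± 17.8). The 4 highest of the 12 values were from doxorubicin tumors, and the other 2 doxorubicin tumors lay among those without. The log2 fold change of 0.36 did not pass (SE 0.17, 95% confidence interval -0.01 to 0.73, limma adjusted p = 0.434), and the exact permutation test of the same 12 values gave p = 0.0519. Without DOX/IgG1 replicate 1 it was 0.47 (SE 0.16, limma adjusted p = 0.195), and over all alternatives its adjusted p ranged from 0.195 to 0.640. Under scaling by the median of ratios it was 0.24.

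Bok was listed at 0 in 3 tumors, IgG1 replicate 1, anti-PD-1 replicate 1 and DOX/anti-PD-1 replicate 1. The remaining tumors had 4.10 and 1.51 TPM (IgG1), 0.91 and 1.56 TPM (anti-PD-1), 3.12, 3.40 and 2.09 TPM (DOX/IgG1) and 3.49 and 2.46 TPM (DOX/anti-PD-1). DOX/IgG1 was thus the only group with no tumor at 0, and its values overlapped with those of IgG1 and DOX/anti-PD-1.

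**Figure D2:**
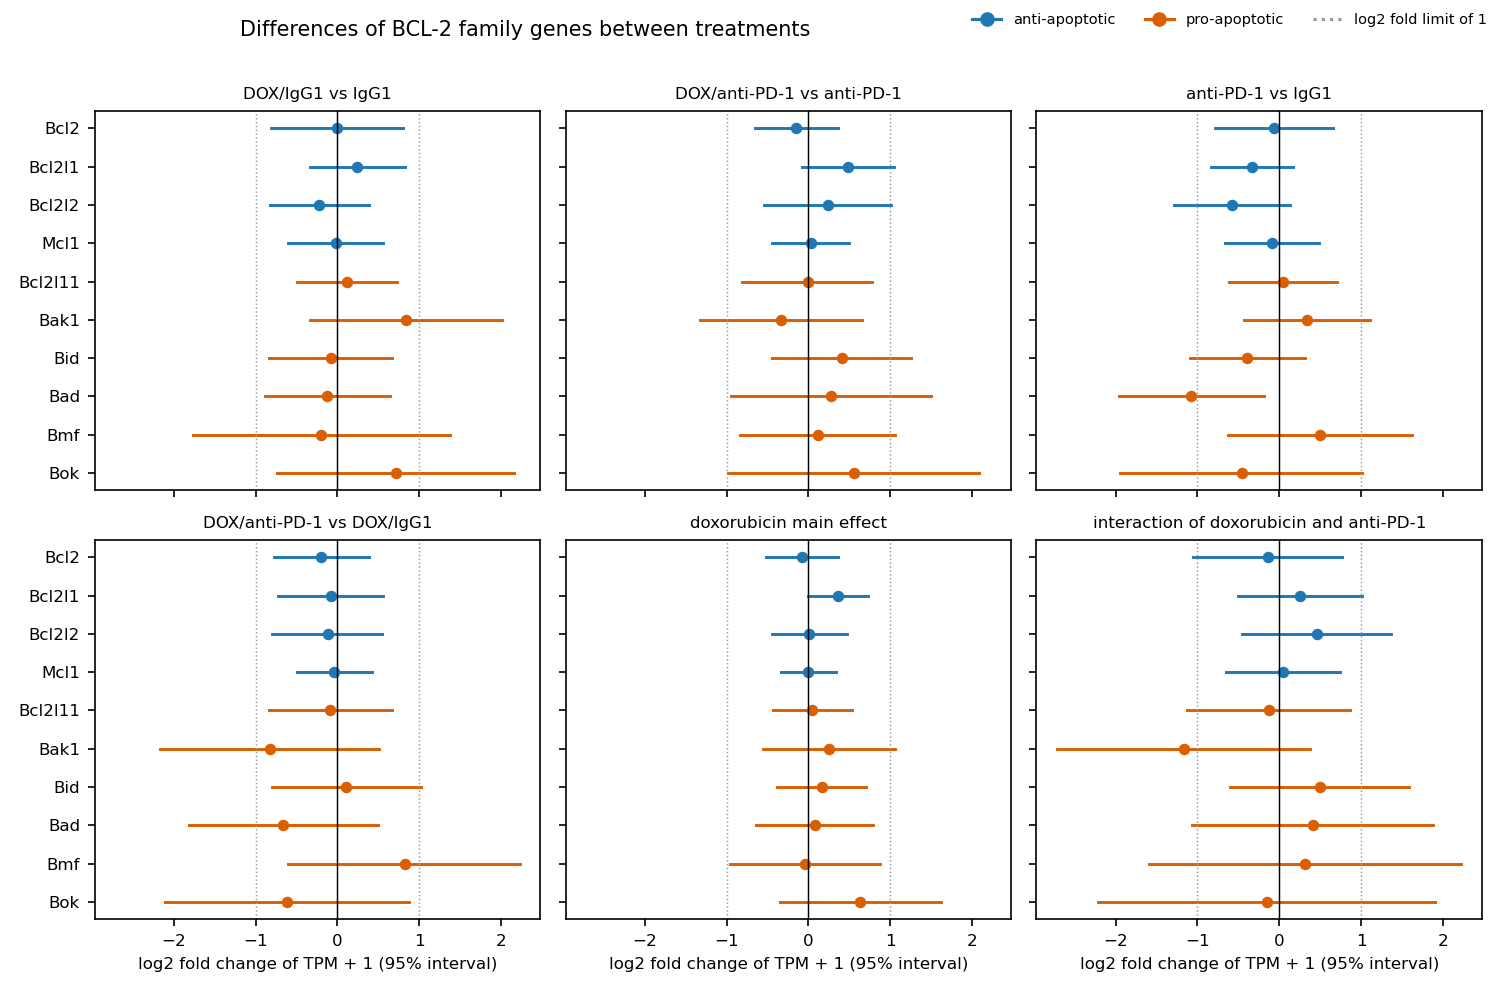
Log2 fold change of each of the 10 genes in each of the 6 tests (points) with the 95% confidence interval of limma (lines), and the limits of 1 and -1. The interval excludes 0 for Bad in anti-PD-1 against IgG1 only, and 0 of 10 genes passed in any test.

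In anti-PD-1 against IgG1, which addresses PD-1 blockade alone, limma called 0 of 10 members and 0% of 13692 genes. An unadjusted p below 0.05 was found for 1 member, Bad, and for 4.60% of all genes. Bad was also the 1 member whose groups did not overlap, against 9.88% of all genes. The members' median log2 fold change was -0.21, with 3 higher and 7 lower under each of the 3 scalings, and that of all genes was -0.03.

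Bad had 26.3, 25.8 and 17.9 TPM in the IgG1 tumors and 5.28, 12.7 and 16.1 TPM in the anti-PD-1 tumors. All 3 anti-PD-1 values lay below all 3 IgG1 values. The means were 23.3 ± 4.71 and 11.4 ± 5.55 TPM (SD, n = 3). The log2 fold change of -1.08 did not pass (SE 0.40, 95% confidence interval -1.96 to -0.19, limma adjusted p = 0.996, lower in 3 of 3) and ranked 262 by p, and the exact permutation test gave the smallest p it can, 0.1.

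Bad depended on single tumors in size but not in direction. Its log2 fold change ran from -1.37 without anti-PD-1 replicate 3 to -0.65 without anti-PD-1 replicate 1, the tumor with 5.28 TPM, and its adjusted p from 0.722 to 1.00 over those fits. With doxorubicin in both groups the corresponding values were 30.3, 15.0 and 20.4 TPM with IgG1 and 21.3, 17.3 and 5.52 TPM with anti-PD-1. Those groups overlapped, with a log2 fold change of -0.67 (SE 0.51) that ran from -1.01 without DOX/anti-PD-1 replicate 1 to -0.12 without DOX/anti-PD-1 replicate 3. Whether the 2 differences differ was tested as the interaction, 0.41 for Bad (SE 0.69, limma adjusted p = 0.993).

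Macrophage markers were examined beside Bad because Cd68, 1 of 5 in the list, was the gene whose pattern was most like that of Bad. Summed over the 5 markers, the IgG1 tumors had 245, 196 and 248 TPM and the anti-PD-1 tumors 157, 219 and 193 TPM, with C1qa the most abundant and 4 of 5 markers lower with anti-PD-1. None of the 5 passed. The tumor with the lowest Bad value, anti-PD-1 replicate 1, also had the lowest sum of all 12. With doxorubicin the orders differed. The sums were 204, 293 and 296 TPM with DOX/IgG1, where Bad had 30.3, 15.0 and 20.4 TPM. With DOX/anti-PD-1 they were 169, 291 and 215 TPM, where Bad had 21.3, 17.3 and 5.52 TPM. Other lists were lower with anti-PD-1 alone too, with 6 of 6 luminal, 5 of 5 adipocyte and 5 of 5 fibroblast markers. The fibroblast sums were 971 to 1490 TPM against 538 to 698 TPM, with 2 markers without overlap and a median log2 fold change of -0.10. Group means were 568 and 201 TPM for Col1a1 and 400 and 272 TPM for Col3a1, but 98.5 and 94.2 TPM for Dcn. Proliferation markers went the other way, with 4 of 4 higher and a median of 0.39. Of all these markers 0 passed. The part of any of these cells in the Bad values was not tested.

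The anti-apoptotic genes were all lower with anti-PD-1 alone, and all overlapped between the groups. Bcl2l2, which encodes BCL-w, had 22.8, 24.1 and 25.6 TPM with IgG1 and 24.9, 11.7 and 13.4 TPM with anti-PD-1, so that 2 of 3 tumors lay below all IgG1 tumors. Its log2 fold change was -0.58 (SE 0.32, 95% confidence interval -1.29 to 0.13, limma adjusted p = 0.996), and it ran from -0.89 without anti-PD-1 replicate 1 to -0.38 without anti-PD-1 replicate 2. Bcl2l1 followed at -0.33 (SE 0.23), Mcl1 at -0.09 (SE 0.26) and Bcl2 at -0.06 (SE 0.33). The last 2 were above 0 without IgG1 replicate 1 for Mcl1 and without IgG1 replicate 2 or 3 for Bcl2.

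PD-1 blockade on top of chemotherapy was addressed by comparing DOX/anti-PD-1 with DOX/IgG1, where limma called 0 of 10 members, with 0 at an unadjusted p below 0.05. The shares of all 13946 genes were 0% that passed, 4.70% (655) with an unadjusted p below 0.05 and 10.2% without overlap, the last beside 0 of 10 members. The members' median log2 fold change was -0.10, with 2 higher and 8 lower, or 3 higher with the listed genes rescaled to the same sum. The largest were those of Bak1, -0.83 (SE 0.59), and Bmf, 0.82 (SE 0.62).

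Both of these rest on DOX/IgG1 replicate 1, since Bak1 was at -0.24 and Bmf at 0.07 without it. Bcl2, the founding anti-apoptotic gene of the family, had 38.2, 55.0 and 49.3 TPM with DOX/IgG1 and 38.1, 48.2 and 36.5 TPM with DOX/anti-PD-1. The groups overlapped, with a log2 fold change of -0.20 (SE 0.26). Without DOX/IgG1 replicate 1, the tumor with 38.2 TPM, the Bcl2 values no longer overlapped, like those of 24.7% of all genes, and its log2 fold change was -0.35.

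The interaction asks whether the difference with doxorubicin depends on the antibody. Limma called 0 of 10 members, with 0 at an unadjusted p below 0.05, beside 0.00679% of 14735 genes (1 gene) and 4.71% with an unadjusted p below 0.05. Bak1 had the largest value, -1.17 (SE 0.72, 95% confidence interval -2.72 to 0.37, limma adjusted p = 0.993). It came from the DOX/IgG1 mean of 23.0 ± 18.5 TPM beside 10.4 ± 2.62 (IgG1), 13.7 ± 4.66 (anti-PD-1) and 11.2 ± 5.37 TPM (DOX/anti-PD-1; SD, n = 3). Without DOX/IgG1 replicate 1 it was -0.58, and without DOX/IgG1 replicate 3 it was -1.56.

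The members with the smallest log2 fold changes over the 6 tests were Mcl1 and Bcl2l11. Mcl1 had 179, 99.7 and 126 TPM with IgG1, 140, 111 and 120 with anti-PD-1, 130, 124 and 134 with DOX/IgG1, and 140, 124 and 115 TPM with DOX/anti-PD-1. Both the highest and the lowest value came from IgG1 tumors. Its log2 fold changes lay between -0.09 and 0.04 in the 6 tests, with intervals that reached from -0.66 to 0.74 at the widest ends.

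Bcl2l11 encodes BIM, a BH3-only protein that binds all the anti-apoptotic members and activates BAK and BAX. Its group means were 46.6 ± 10.4 TPM with IgG1, 48.9 ± 15.1 with anti-PD-1, 50.2 ± 8.72 with DOX/IgG1 and 49.6 ± 21.0 with DOX/anti-PD-1 (SD, n = 3). The single tumors ran from 31.1 to 72.4 TPM, both in DOX/anti-PD-1 tumors. Its log2 fold changes lay between -0.13 and 0.12, and a p that misses the limit does not show that the levels were equal.

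The balance of the family was described by the summed TPM of the 4 anti-apoptotic genes over that of the 6 pro-apoptotic genes, with no test. The ratio was 3.08, 1.94 and 2.51 in the IgG1 tumors, 2.99, 1.70 and 2.17 with anti-PD-1, 1.73, 2.67 and 2.29 with DOX/IgG1, and 2.10, 1.81 and 3.29 with DOX/anti-PD-1. Anti-apoptotic transcripts were the more abundant in all 12 tumors, and all 4 groups overlapped. The group means of 2.51 ± 0.570, 2.29 ± 0.653, 2.23 ± 0.473 and 2.40 ± 0.784 (SD, n = 3) differed by less than the spread within any group. Both sums leave out the other family genes, among them the effector gene Bax. Its means were 40.1 TPM (IgG1), 24.9 TPM (anti-PD-1), 43.4 TPM (DOX/IgG1) and 30.1 TPM (DOX/anti-PD-1). The ratio thus does not describe the whole family.

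Mcl1 made up 38.8 to 61.6% of the anti-apoptotic sum, with a mean of 48.4%, and Bcl2l11 25.8 to 54.7% of the pro-apoptotic sum, with a mean of 41.8%. Over the 12 tumors the ratio was 2.36 ± 0.549, and with Mcl1 left out it was 1.21 ± 0.324 (mean ± SD, n = 12) and below 1 in 4 tumors. The anti-apoptotic sum ran from 214 to 305 TPM and the pro-apoptotic sum from 82.8 to 149 TPM. The lowest pro-apoptotic sum and the highest ratio were in DOX/anti-PD-1 replicate 3, and the highest pro-apoptotic sum was in DOX/anti-PD-1 replicate 2.

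**Figure D3:**
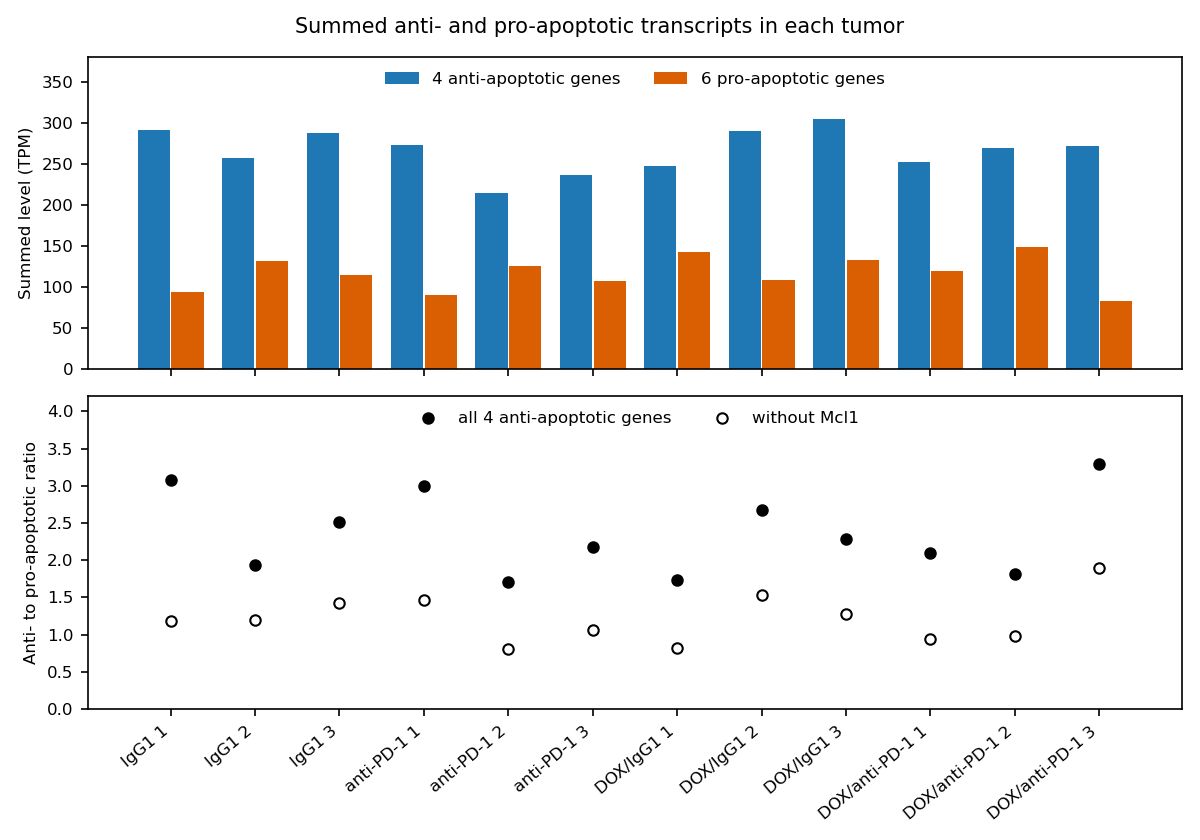
Ratio of the summed TPM of 4 anti-apoptotic genes to that of 6 pro-apoptotic genes in each of the 12 tumors (filled points), the same ratio without Mcl1 (open points), and above them both sums (bars). The ratio lies between 1.70 and 3.29 and the groups overlap.

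How the members varied with each other was computed for all 45 pairs over the 12 tumors on log2(TPM + 1). Of these, 26 had a positive and 19 a negative Pearson r, from -0.68 to 0.70 with a median of 0.11. In permutation tests 5 pairs had an unadjusted p below 0.05 and 0 an adjusted p below 0.05, the smallest being 0.290. Spearman's rho also gave 0 pairs below 0.05 after adjustment, and deviations from the group means, reordered within groups, gave 0 pairs with a smallest adjusted p of 0.197.

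The pair with the smallest p was Mcl1 and Bok, with r = -0.68 (permutation p = 0.00949, adjusted p = 0.290) and rho = -0.62 (permutation p = 0.0359). The 3 tumors with Bok at 0 had the 3 highest Mcl1 values, 179, 140 and 140 TPM. All 3 are replicate 1 of their group and among the 5 tumors with the most genes at 0. They held 7693, 7611 and 7730 such genes, beside 8104 in DOX/IgG1 replicate 1 and 7661 in DOX/anti-PD-1 replicate 3. The remaining 7 tumors held 6534 to 7111. Replicate 1 thus had the most genes at 0 in every group, while Bok was at 3.12 TPM in DOX/IgG1 replicate 1. The part of this in the pair was not tested. Without the 2 tumors farthest from the median of Mcl1, r was -0.46. Under scaling by the median of ratios r was -0.80 and this 1 pair passed, with a permutation adjusted p of 0.0103, while its adjusted p reached 0.532 in other settings for r and was 0.584 for rho.

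Bcl2l11 and Bok had r = 0.70 (permutation p = 0.0129, adjusted p = 0.290) and rho = 0.55 (permutation p = 0.0690), and r was 0.42 without the 2 farthest tumors. Bcl2 and Mcl1 were opposed, with r = -0.64 (permutation p = 0.0271) and rho = -0.33 (permutation p = 0.299). This relation rests on IgG1 replicate 1, the tumor with the highest Mcl1 (179 TPM) and the lowest Bcl2 value (27.3 TPM), and r was -0.30 without it. Bcl2l1 and Bcl2l2 had r = 0.63 (permutation p = 0.0287) and rho = 0.57 (permutation p = 0.0582), and r was 0.61 without the 2 farthest tumors. Mcl1 and Bcl2l11 had r = -0.58 (permutation p = 0.0453) and rho = -0.58 (permutation p = 0.0522), with -0.57 without the 2 farthest tumors.

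**Figure D4:**
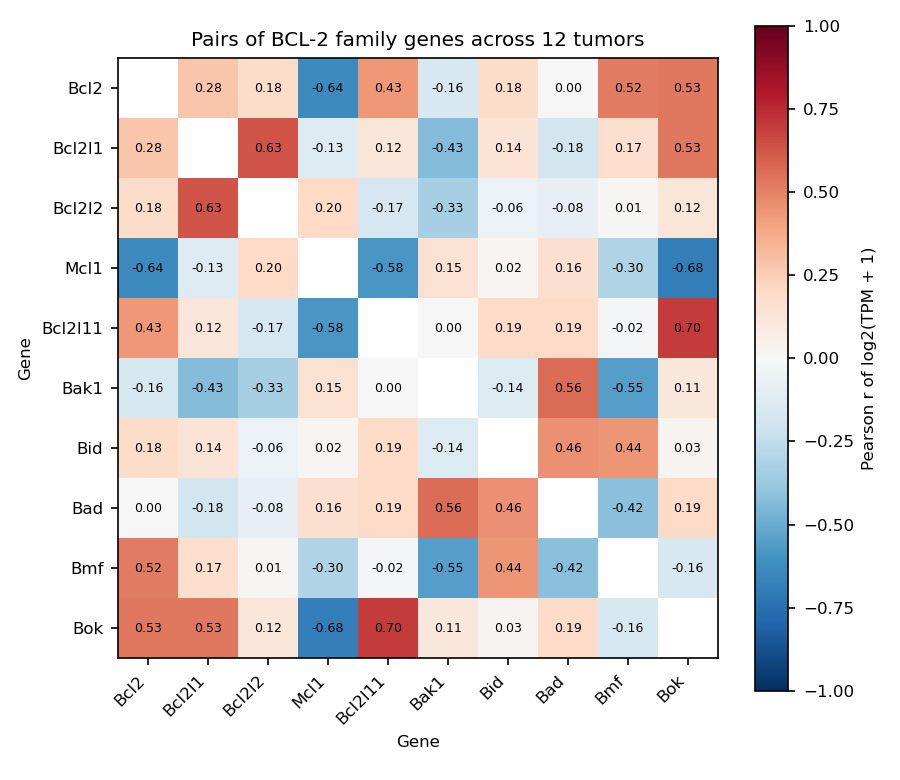
Pearson r of log2(TPM + 1) over 12 tumors for each of the 45 pairs of the 10 genes, printed in each cell and coloured from -1 to 1. The most negative pair is Mcl1 and Bok (-0.68), the most positive Bcl2l11 and Bok (0.70), and 0 pairs had an adjusted p below 0.05.

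Among 11291 genes, those with the pattern most like each member over the 12 tumors were found by Pearson r, as a description. For the anti-apoptotic genes they were Erdr1 (r = 0.83) and Polr2b (0.83) for Mcl1, Micall1 (0.94) and Mmp2 (0.94) for Bcl2l1, Zmat1 (0.92) and Rsbn1l (0.92) for Bcl2, and Kmt2d (0.90) and B4galt4 (0.88) for Bcl2l2. Mcl1 thus had the weakest best match of the 10. For the BH3-only genes they were Aqr (0.88) and Ryk (0.86) for Bcl2l11, 2310009B15Rik (0.89) and Atp5sl (0.87) for Bid, Cd68 (0.94) for Bad, and Primpol (0.90) and Pde7a (0.89) for Bmf. Bak1 was matched by Dpp7 (0.93) and Ccdc86 (0.91), and Bok by Ppme1 (0.91) and Myo6 (0.90).

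The wider pathway was read from fixed lists around the 10 genes, and 0 genes of any of these lists passed in any of the 6 tests by limma. Of 15 other BCL-2 family genes, with Bax among them, 14 were tested in the doxorubicin main effect and 0 had an unadjusted p below 0.05. The smallest p was that of Bcl2l12, at a log2 fold change of -0.87 (SE 0.43, limma adjusted p = 0.446), and Bnip3l was the most abundant at a mean of 148 TPM. Of 9 genes of mitochondrial release and the apoptosome, 1 had an unadjusted p below 0.05, Diablo, which frees caspases from their inhibitors (0.43, SE 0.19, limma adjusted p = 0.384), and Vdac1 was the most abundant (208 TPM).

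Of 7 caspases, 1 had an unadjusted p below 0.05 in the same fit. It was Casp8, the initiator caspase that cuts BID, with 20.5 to 42.1 TPM in the 6 tumors without and 39.3 to 50.4 TPM in the 6 with doxorubicin, a log2 fold change of 0.58 (SE 0.18, limma adjusted p = 0.241). Casp12 was the most abundant (90.3 TPM). Of 8 inhibitor of apoptosis genes, 1 did, Naip6 (0.79, SE 0.33, limma adjusted p = 0.360), with Birc6 the most abundant (251 TPM). Of 9 death receptor pathway genes, 1 did, the receptor Tnfrsf1a (0.58, SE 0.22, limma adjusted p = 0.323), with Cflar the most abundant (99.2 TPM). These counts of 1 lie near the 12.0% of all genes with such a p in this fit. When each tumor was left out, the log2 fold changes ran from -1.12 to -0.46 for Bcl2l12 (the latter without DOX/IgG1 replicate 1, where it was at 0), 0.35 to 0.52 for Diablo, 0.46 to 0.68 for Casp8, 0.59 to 1.02 for Naip6 and 0.42 to 0.69 for Tnfrsf1a, and 0 of the 5 passed.

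The tumor suppressor p53 induces several BH3-only genes after DNA damage, and its targets outside the family were read beside the members. All 12 were higher with doxorubicin in the main effect, with a median log2 fold change of 0.73 and 7 at an unadjusted p below 0.05 (12.0% of all genes), and 0 of 12 passed. In DOX/IgG1 against IgG1 12 of 12 were higher, with a median of 1.10 and 8 at an unadjusted p below 0.05 (7.73% of all genes). In DOX/anti-PD-1 against anti-PD-1 9 of 12 were higher, with a median of 0.31 and 1 at such a p (8.63% of all genes). In the interaction 10 of 12 were below 0, with a median of -0.72, 2 at such a p and 0 that passed. Phlda3 had the smallest p in the main effect (1.11, SE 0.27, limma adjusted p = 0.196), and without DOX/anti-PD-1 replicate 2 it was at 1.29 (limma adjusted p = 0.0905), which met both limits. Trp53inp1 was the most abundant, with a mean of 128 TPM. The BH3-only genes Bbc3 and Pmaip1 are not among the members. Bbc3 had group means of 6.59 TPM (IgG1), 6.07 TPM (anti-PD-1), 8.49 TPM (DOX/IgG1) and 7.70 TPM (DOX/anti-PD-1). For Pmaip1 they were 3.51, 2.92, 3.46 and 3.70 TPM in the same order. In the main effect the 6 pro-apoptotic members had a median of 0.12 and 5 higher, and the 4 anti-apoptotic members a median of 0.01 and 3 higher, which became 4 of 10 together under scaling by the median of ratios.

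Summed over the 12 targets, the levels were 247, 378 and 406 TPM with IgG1, 459, 344 and 453 TPM with anti-PD-1, 834, 712 and 636 TPM with DOX/IgG1, and 371, 301 and 652 TPM with DOX/anti-PD-1. All DOX/IgG1 tumors lay above all IgG1 tumors, and 1 of 3 DOX/anti-PD-1 tumors lay above all anti-PD-1 tumors. The highest sum, 834 TPM, was in DOX/IgG1 replicate 1, where Bak1 (44.3 TPM) and Bad (30.3 TPM) also had their highest values. The part of p53 signaling in these 2 values was not tested.

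Lists of cell type markers were read for all tumors beside the members. Fibroblast markers (5 of 5 present, Col1a1 most abundant at 358 TPM) summed to 996, 971 and 1490 TPM with IgG1, 697, 698 and 538 TPM with anti-PD-1, 436, 1580 and 1080 TPM with DOX/IgG1, and 822, 1160 and 1290 TPM with DOX/anti-PD-1. The 2 DOX/IgG1 tumors with high sums were those with high Bcl2l1 (91.6 and 97.9 TPM), and the third had the lowest fibroblast sum and a low Bcl2l1 (60.6 TPM). In the DOX/anti-PD-1 tumors both had the same order, with Bcl2l1 at 59.5, 77.9 and 98.4 TPM, while in the other 3 groups the orders differed. The part of fibroblasts in Bcl2l1 was not tested. Macrophage markers had sums of 157 to 296 TPM, and all 5 reached 1 TPM in at least 3 tumors. The lymphocyte lists were low, with at most 44.0 TPM summed over the T cell markers, of which Trac was not listed, and at most 28.3 TPM over the NK cell markers. No B cell marker of 5 reached 1 TPM in 3 tumors, and the neutrophil marker Ly6g was at 0 in all 12.

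In the doxorubicin main effect 4 of 4 proliferation markers were lower, 2 of them at an unadjusted p below 0.05, and with Top2a the most abundant (113 TPM) they summed to 212, 338 and 290 TPM with IgG1, 338, 413 and 298 TPM with anti-PD-1, 276, 77.7 and 193 TPM with DOX/IgG1, and 391, 331 and 147 TPM with DOX/anti-PD-1. Of 6 luminal markers 5 were lower, with 1 at such a p, and 1 was higher, also at such a p. Adipocyte markers were higher for 5 of 5 and T cell markers for 4 of 4 tested, with 1 at such a p in each list. Salivary gland markers were higher for 4 of 4, with 3 at such a p. Macrophage markers were higher for 5 of 5 and basal epithelial markers for 4 of 4, with 0 at such a p. Of 5 fibroblast markers 3 were higher, with 1 at such a p, and 2 were lower. None of these markers passed in this fit, and the part of these cells in the levels of the members was not tested.

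Markers of other tissues differed in their sums between tumors. Skeletal muscle markers summed to between 0 TPM in DOX/anti-PD-1 replicate 2 and 592 TPM in DOX/anti-PD-1 replicate 1, and adipocyte markers to between 36.1 and 476 TPM. Salivary gland markers summed to 52.1, 98.0 and 113 TPM in the DOX/IgG1 tumors and to at most 23.3 TPM in the other 9. Of the 4 salivary markers, 2 passed in DOX/IgG1 against IgG1, Smr3a (log2 fold change 3.87, limma adjusted p = 0.0334, higher in 3 of 3) and Bpifa2 (4.73, limma adjusted p = 0.0334, higher in 3 of 3). Both were listed at 0 in all 3 IgG1 tumors, and when each tumor was left out in turn their adjusted p reached 0.317. The other lists, of basal epithelium, endothelium, nerve and glia, and proliferation, had 0 genes that passed in any test, and the part of these tissues in the levels of the members was not tested.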

How the data were processed

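RNA of 12 whole PyMT tumors, 3 in each of 4 groups, was measured. By the authors' account SeqBox was used, with skewer for trimming, STAR for alignment to mm10 and RSEM for quantification, and the authors deposited log2(TPM + 1) with decimal commas. The authors' values are thus on the log2 scale of TPM, and 2 to the value minus 1 gave TPM. The depth per sample is unknown. Each file held 1 sample, with 0 columns of other samples. Groups came from the labels, and replicate numbers were not treated as pairs.

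The members and lists were chosen with earlier results of these data known. The plan foresaw a count model for counts and limma for normalized values. As the files hold the latter, limma 3.58.1 (R 4.3.3) was run on log2(TPM + 1), with a pseudocount of 1 as deposited. Its lmFit and eBayes steps used a mean-variance trend and gave two-sided p-values, adjusted by Benjamini-Hochberg over all genes with at least 1 TPM in at least 3 tumors of the fit. The limits were an adjusted p below 0.1 and a log2 fold change beyond 1 in either direction. The pairwise comparisons share groups and are not independent. Pairs of genes were tested with 100000 permutations. Python 3.11.15, numpy 2.4.6, scipy 1.17.1 and pandas 2.3.3 were used. The limma fit, the test of pairs and the search for the most similar genes were tested on simulated data, the last 2 only after the real data had been run.

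Named were all 10 members, of each pathway list any gene that passed, the gene with the smallest p in the doxorubicin main effect and the most abundant gene, and for each member the 2 genes most like it (for Bad only the first is given), among genes with at least 5 TPM on average. Cd68 falls under the last part. Positions came from GENCODE on GRCm38 and promoters from RefSeq on GRCm38.p6. The alternatives were a pseudocount of 0.1, no filter, a minimum of 5 TPM, scaling by the median of ratios, listed genes rescaled to the same sum, no mean-variance trend, a replicate block, all 12 tumors in each fit and leaving out each tumor. The anti-PD-1 main effect and tests between groups that differ in both treatments were not used here.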

Additional observations from a re-analysis of the deposited data

Results flagged for a closer look

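Among the members and the fixed lists, 1 gene passed by limma in the interaction (DOX by antibody), the salivary gland marker Bpifa2 (log2 difference of -4.73, adjusted p = 0.0909, in all 3 DOX/IgG1 tumors). Bpifa2 was at 14.4, 21.3 and 53.7 TPM in the DOX/IgG1 tumors and listed at 0 in the other 9. It is not a BCL-2 family gene, and no member showed such a difference. The interaction ranged from -5.13 to -4.21 when each tumor was left out, with an adjusted p of 0.0332 to 0.397. It did not pass with the median of ratios (limma adjusted p = 0.101), rescaling (0.128), a replicate block (0.276), a pseudocount of 0.1 (0.991) or a minimum of 5 TPM (0.997), so it depends on the processing. The cause was not tested.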

How the results depend on the processing

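With the files holding no counts, DESeq2 was not run. All other alternatives could be run. Leaving out each tumor for the pairs and the ratio, and every alternative for the genes of the fixed lists were chosen after seeing the data. The number of members that passed was 0 by limma in all 14 alternatives of each pairwise comparison and all 19 of the main effect and the interaction. Of 934 alternative log2 fold changes of the members 845 kept their direction, 89 did not and 19, in 6 results, had an unadjusted p below 0.05, and the smallest adjusted p was 0.195.

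Scaling by the median of ratios turned the main effect to -0.11 for Bcl2l2, -0.12 for Mcl1, -0.07 for Bcl2l11 and -0.04 for Bad, and in DOX/anti-PD-1 against anti-PD-1 Mcl1 to -0.10 and Bmf to 0.00, just below 0. With the listed genes rescaled to the same sum, the main effect turned to -0.03 for Bcl2l2 and -0.04 for Mcl1, and Mcl1 crossed 0 at 0.00 both in DOX/anti-PD-1 against anti-PD-1 and against DOX/IgG1. In the main effect the median log2 fold change of all genes was 0.12 as deposited, 0.01 under the median of ratios and 0.08 with rescaling. Of all genes, the number that passed also moved. Without a mean-variance trend it was 13 in DOX/IgG1 against IgG1, 3 in DOX/anti-PD-1 against anti-PD-1, 1 in anti-PD-1 against IgG1, 3 for DOX/anti-PD-1 compared with DOX/IgG1, 0 in the main effect and 3 in the interaction. The median of ratios gave 3 for DOX/anti-PD-1 compared with DOX/IgG1, 14 in the main effect (3 higher) and 0 in the interaction, and rescaling gave 3, 8 (3 higher) and 0. With all 12 tumors in the fit, DOX/anti-PD-1 compared with DOX/IgG1 gave 2. A minimum of 5 TPM gave 13 in the main effect and 0 in the interaction, no filter gave 3 and the pseudocount of 0.1 gave 0 in the interaction. The cause was not tested.

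Pairing by replicate number was checked on the deviations from the group means. The r of the 18 same-number pairs of tumors ran from -0.096 to 0.134, with 4 above 0.1. For pairs with different numbers it ran from -0.19 to 0.113. The ranges overlapped, and the numbers were not taken as pairs. As a hint from the data and not from the design, 8 of 12 tumors correlated best with a tumor of their own number. With a replicate block the number of genes that passed was 2 in DOX/IgG1 against IgG1, 1 in the main effect and 0 in the interaction. In that block fit Bcl2l1 in the main effect had a log2 fold change of 0.36 (SE 0.16, limma adjusted p = 0.386) and Bad in anti-PD-1 against IgG1 one of -1.08 (SE 0.41). Under the median of ratios 1 pair of members passed, Mcl1 and Bok, and the ratio without Mcl1 was 1.21. The cause was not tested.

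When each tumor was left out, the number of genes that passed ran from 0 to 122 in DOX/IgG1 against IgG1, 0 to 4 in each of the other 3 pairwise comparisons, 0 to 212 in the main effect and 0 to 1 in the interaction. The pairs of members stayed at 0 and the ratio at 2.27 to 2.42. The ranges in DOX/IgG1 against IgG1 were -0.39 to 0.21 for Bcl2, -0.21 to 0.21 for Mcl1, -0.08 to 0.25 for Bcl2l11, -0.26 to 0.16 for Bid, -0.38 to 0.11 for Bad and -0.76 to 0.54 for Bmf. The ranges in DOX/anti-PD-1 against anti-PD-1 were -0.05 to 0.12 for Mcl1, -0.32 to 0.27 for Bcl2l11, -0.60 to 0.10 for Bak1, -0.15 to 0.83 for Bad and -0.27 to 0.43 for Bmf. The ranges in anti-PD-1 against IgG1 were -0.45 to 0.15 for Bcl2, -0.28 to 0.14 for Mcl1, -0.16 to 0.30 for Bcl2l11, -0.06 to 0.88 for Bmf and -1.08 to 0.10 for Bok. The ranges for DOX/anti-PD-1 compared with DOX/IgG1 were -0.29 to 0.10 for Bcl2l1, -0.25 to 0.02 for Bcl2l2, -0.12 to 0.02 for Mcl1, -0.39 to 0.20 for Bcl2l11, -0.14 to 0.43 for Bid and -1.04 to 0.04 for Bok. The ranges in the doxorubicin main effect were -0.26 to 0.01 for Bcl2, -0.11 to 0.12 for Bcl2l2, -0.08 to 0.11 for Mcl1, -0.08 to 0.19 for Bcl2l11, -0.08 to 0.51 for Bak1, -0.13 to 0.30 for Bad and -0.27 to 0.31 for Bmf. The ranges in the interaction were -0.36 to 0.24 for Bcl2, -0.18 to 0.24 for Mcl1, -0.44 to 0.16 for Bcl2l11, -0.02 to 0.95 for Bad, -0.42 to 0.87 for Bmf and -0.72 to 0.51 for Bok. The cause was not tested. For the results that kept their direction, Bad in anti-PD-1 against IgG1 ranged from -1.37 to -0.65, and Bcl2l1 in the main effect from 0.27 to 0.47. The depth of the libraries is unknown, so what it limits, mainly at the low levels of Bok, could not be computed.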
